A study of Rattus norvegicus with 48 samples.

Results

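The liver response after 7 days on diet containing 1000 ppm phenobarbital (PB) was read from 6 arrays of the 48 in the series, 3 from treated rats and 3 from time matched controls. The arrays were chosen by the animal number on each of them, set against the study design, and not by any measured value. All rats were male Fischer F344 animals, 9 weeks old at the start and without any genetic alteration, and 5 were killed in each dose and day group. The treated rats ate standard diet into which the sodium salt of PB had been milled, and the controls ate that diet with 0 ppm PB. Snap-frozen pieces of the left lateral lobe of 3 of the 5 animals in each group gave RNA for 1 Affymetrix rat genome array per animal. Each piece of liver holds all cell types of the lobe, so a lower signal from fewer cells of a type and from less RNA per cell cannot be told apart.

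PB is the classical inducer of drug metabolism in rodent liver. It activates the nuclear receptor CAR (Nr1i3) in hepatocytes, which then enters the nucleus and, with its partner RXR, raises transcription of cytochrome P450 2B genes and of other enzymes that oxidize, conjugate and export foreign compounds. The receptor PXR (Nr1i2) shares many of these target genes, and treated rodent liver enlarges while the smooth endoplasmic reticulum of its hepatocytes expands.

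The 9 hepatocyte markers measured, such as albumin and the transcription factor Hnf4a, were listed on all 6 arrays. Their summed signal was 314837 to 389232 in treated livers and 311203 to 455797 in controls, and none passed the test. The 3 treated arrays listed 15423 to 15779 probesets and the 3 control arrays 14767 to 16068, and array correlations were 0.98 to 0.988 within a group and 0.971 to 0.981 between the groups. The arrays were made in 6 runs. The treated arrays belong to runs 5 and 6 and the control arrays to runs 3 and 4, so no run holds both groups and no value within a run can be had against these controls. The part of the run in these results cannot be told apart from that of the diet by this comparison alone. Key values are therefore repeated with the run as a fixed block in the fit of all 48 arrays, and against 4 control animals of days 1 and 14 whose arrays were made in runs 5 and 6.

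Of 14481 probesets tested, 178 were higher (1.23%) and 91 lower (0.628%) at 1000 ppm than in time matched controls, 1.86% in all (limma, Benjamini-Hochberg adjusted p under 0.05). By size, 105 of the higher and 44 of the lower probesets changed by at least 1.5-fold, and 36 and 17 by at least 2-fold. The median log2 fold change over all probesets tested was -0.015. Of the 269 probesets called, 230 carry 1 gene symbol and stand for 214 genes. With the run as a fixed block 13 probesets passed (0.0974% of those tested), all of them higher, and 10 of these were among the 269. This block multiplies the variance of the comparison by 3.52. Against the controls made in the same runs 38 passed (0.256%), 31 higher and 7 lower, of which 32 were among the 269. The number of calls fell whichever animal was left out. It was 136 without 1000 ppm replicate 1, 159 without control replicate 3 and 173 without control replicate 1. It was 186 to 202 when one of the other 3 animals was left out.

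The genes that rose most encode enzymes of drug and retinoid metabolism and a lipase. Aldh1a1, which oxidizes retinal to retinoic acid, had signals of 15772, 15447 and 16121 in treated livers, against 635, 1138 and 2097 in controls. Its log2 fold change was 3.78 ± 0.34 (standard error, n = 3 against 3, adjusted p = 1.2e-09 in limma), and the treated animals lay far closer to each other than the controls did. Ces2c, a carboxylesterase that hydrolyses ester drugs, gave 7889, 6010 and 7716 in treated livers and 507, 640 and 701 in controls. It rose by 3.55 ± 0.21 on the log2 scale (adjusted p = 4.0e-15), with no overlap. The probeset that carries the symbols of Cyp2b2 and Cyp2b1, the P450 enzymes by which PB induction is usually followed, gave 34326, 40482 and 39962 in treated livers and 5656.5, 6024 and 5119 in controls. The rise was 2.77 ± 0.14 (adjusted p = 1.6e-16), and these 2 near-identical genes cannot be separated by this probeset. Ugt2b1, a UDP-glucuronosyltransferase, had 27387, 29728 and 31216 in treated livers and 3389, 4783 and 5840 in controls. Its rise of 2.69 ± 0.15 (adjusted p = 3.5e-15) again left a wide gap between the groups. These 4 also passed with the run as a fixed block, with log2 fold changes of 4.06, 3.47, 2.45 and 2.36 in the order described, and against controls of the same runs.

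**Figure D1:**
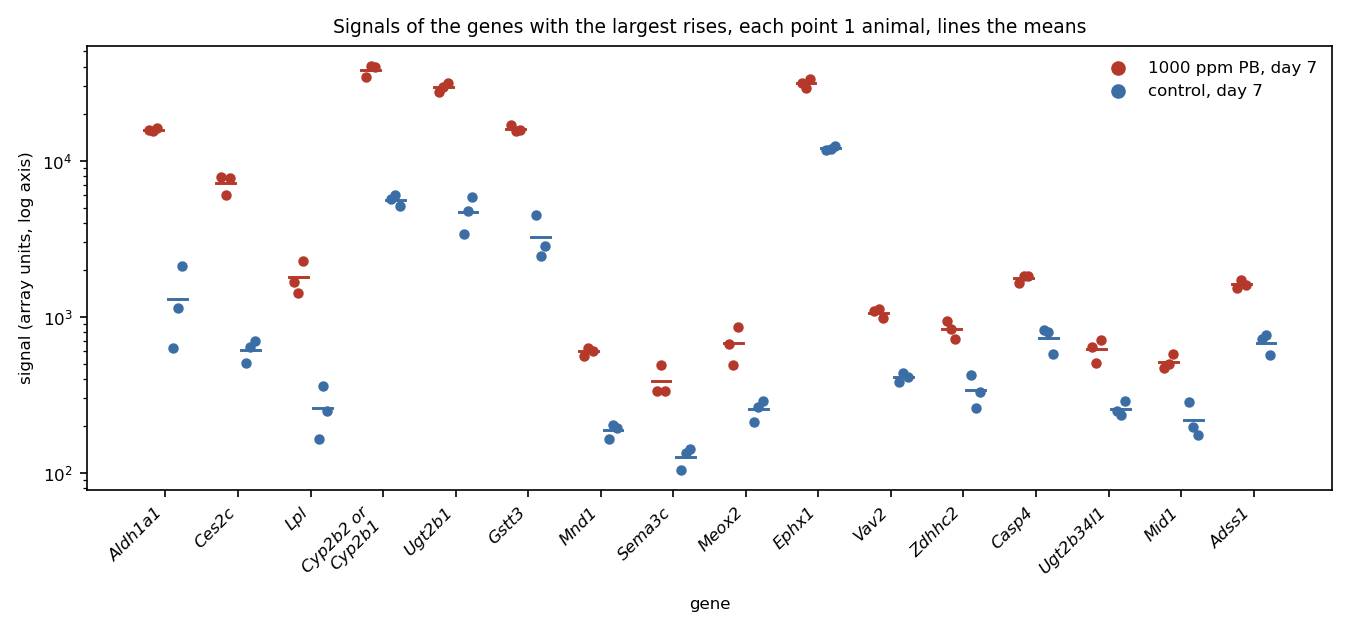
Signal (array units, log axis) of each animal on day 7 for the 15 genes with the largest rises and the probeset of Cyp2b2 or Cyp2b1, 1000 ppm PB in red and control in blue, with lines at the means of 3 animals. Genes with overlapping groups were not eligible for the 15, and Aldh1a1 and Ces2c show the widest gaps.

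Lpl and Gstt3 were also among the largest rises. Lpl, the lipoprotein lipase that frees fatty acids from circulating triglycerides, had signals of 1673, 1416 and 2269 in treated livers and 164.5, 362.6 and 248.3 in controls. The log2 fold change was 2.83 ± 0.30 (limma, adjusted p = 8.7e-08), and 2.46 (adjusted p = 0.040) against controls of the same runs, while with the run as a fixed block it was 2.92 (adjusted p = 0.110). Gstt3, a theta class glutathione S-transferase, gave 16963, 15393 and 15713 in treated livers and 4472, 2449 and 2820 in controls, a rise of 2.35 ± 0.32 (adjusted p = 8.4e-06). It too passed against controls of the same runs (adjusted p = 0.0083) and missed with the run as a block (adjusted p = 0.182). Ephx1, the microsomal epoxide hydrolase, had 31545, 29069 and 33181 in treated livers against 11606, 11933 and 12468 in controls. Its rise of 1.38 ± 0.11 (adjusted p = 2.5e-11) passed in both of these fits.

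The promoters of the 5 genes with 1 symbol and the largest rises were looked up, and 4 of them were found in RefSeq (build GRCr8). Each is shown 5′ to 3′ on the strand of its gene, from 250 bases before to 50 bases after the start, in lower case. Capitals mark AGTTCA or its reverse complement TGAACT, a hexamer bound by receptors of the CAR and PXR family.
Aldh1a1, chr1:227537370-227537669, strand +: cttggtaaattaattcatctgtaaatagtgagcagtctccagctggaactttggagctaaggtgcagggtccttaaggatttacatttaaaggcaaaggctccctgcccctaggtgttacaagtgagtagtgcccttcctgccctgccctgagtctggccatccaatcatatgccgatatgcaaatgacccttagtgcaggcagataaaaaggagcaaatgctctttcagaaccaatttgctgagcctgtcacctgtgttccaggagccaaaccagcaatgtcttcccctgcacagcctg
Ces2c, chr1:270376951-270377250, strand +: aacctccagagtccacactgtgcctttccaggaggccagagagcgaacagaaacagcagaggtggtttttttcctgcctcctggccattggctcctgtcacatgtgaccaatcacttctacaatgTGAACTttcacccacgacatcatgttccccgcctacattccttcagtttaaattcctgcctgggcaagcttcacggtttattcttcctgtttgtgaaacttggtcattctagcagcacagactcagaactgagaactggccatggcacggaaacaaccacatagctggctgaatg
Ugt2b1, chr14:21378632-21378931, strand +: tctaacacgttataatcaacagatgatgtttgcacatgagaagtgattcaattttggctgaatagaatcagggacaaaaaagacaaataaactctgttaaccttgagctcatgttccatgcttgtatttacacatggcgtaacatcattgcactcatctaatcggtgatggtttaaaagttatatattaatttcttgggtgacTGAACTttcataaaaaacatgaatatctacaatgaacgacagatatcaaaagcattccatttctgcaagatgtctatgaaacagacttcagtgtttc
Gstt3, chr20:12874368-12874667, strand +: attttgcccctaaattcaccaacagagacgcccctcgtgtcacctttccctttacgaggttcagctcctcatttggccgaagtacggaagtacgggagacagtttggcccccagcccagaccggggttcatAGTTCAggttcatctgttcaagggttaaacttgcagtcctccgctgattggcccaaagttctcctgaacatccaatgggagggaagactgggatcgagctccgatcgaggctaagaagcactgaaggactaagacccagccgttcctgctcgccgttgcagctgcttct
Ces2c, Ugt2b1 and Gstt3 each hold 1 such match and Aldh1a1 holds none. Searched on both strands in windows of 300 bases, AGTTCA lay in 19 of the 124 promoters found for genes called higher (15.3%), in 4 of the 61 for genes called lower (6.56%) and in 738 of the 7349 found for all measured genes. The related hexamer AGGTCA, lay in 17.7%, 16.4% and 12.3% of them in the same order, and the core of the antioxidant response element, TGACNNNGC, in 17.7%, 19.7% and 14.7%. These shares are descriptions of the windows and were not tested. None of the 4 promoters shown holds AGGTCA or TGACNNNGC on either strand.

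Several of the other genes that rose are not enzymes of drug metabolism. App, the amyloid precursor protein, is carried by 3 probesets. In the brightest of them it had 8590, 7765 and 8208 in treated livers, against 3880, 4149 and 3141 in controls, and the 3 probesets rose by 1.15 ± 0.15, 1.71 ± 0.13 and 1.82 ± 0.25 on the log2 scale (limma, adjusted p = 2.8e-06, 3.0e-11 and 7.9e-06). All 3 therefore moved the same way. Mnd1, a protein of meiotic recombination, had 559, 631 and 608 in treated livers and 165.5, 202.3 and 194.1 in controls, a rise of 1.68 ± 0.24. Sema3c, a secreted semaphorin, rose by 1.60 ± 0.22, Meox2, a homeobox transcription factor, by 1.38 ± 0.22 and Vav2, a signalling protein, by 1.37 ± 0.18. Zdhhc2, a palmitoyltransferase, Casp4, an inflammatory caspase, Ugt2b34l1, a glucuronosyltransferase, Mid1, a ubiquitin ligase bound to microtubules, and Adss1, an enzyme of adenine nucleotide synthesis, rose by 1.25 to 1.31, with adjusted p values from 1.6e-06 to 0.0051. Mid1 missed the threshold without control replicate 3 (adjusted p = 0.0537), and the other 14 of the 15 genes with the largest rises stayed called whichever animal was left out. The brightest probeset of App and the genes from Mnd1 to Adss1 all missed with the run as a fixed block (limma, adjusted p from 0.0583 to 0.778). Against controls of the same runs Meox2 missed (adjusted p = 0.119) and the others passed (adjusted p up to 0.0400).

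Falls were smaller and less certain than rises. Fmo1, a flavin-containing monooxygenase of the endoplasmic reticulum, had signals of 1755, 1009 and 2024 in treated livers and 3454, 4353 and 2931 in controls, and fell by 1.21 on the log2 scale (standard error 0.23, limma adjusted p = 0.0022). Glul, the glutamine synthetase of the hepatocytes next to the central vein, gave 4159, 2389 and 3420 in treated livers and 7208, 6795 and 5517 in controls. All 3 of its probesets fell, the brightest by 1.00 (adjusted p = 8.6e-05) and the others by 1.03 and 1.20 (adjusted p = 4.6e-04 and 6.4e-06). Fmo1 and Glul both stayed called when any 1 of the 6 animals was left out. With the run as a fixed block, Glul had a change of -1.08 (adjusted p = 0.272) and Fmo1 one of -1.06 (adjusted p = 0.695). Against controls of the same runs the changes were -1.03 and -1.54 (adjusted p = 0.141 and 0.0872).

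Slc22a8, an organic anion transporter, fell by 1.09 ± 0.21 (limma, adjusted p = 0.0017), with 517, 673 and 698 in treated livers and 1647, 1262 and 1122 in controls. A brighter probeset of the same gene, with means of 5155 in treated livers and 7924 in controls, changed by -0.63 ± 0.38 without passing (adjusted p = 0.487), so the 2 probesets of this gene differ in their call. Dmxl2, a regulator of the vacuolar proton pump, fell by 1.06 ± 0.23 with 587, 818 and 748 in treated livers and 1614, 1704 and 1186 in controls. Slc22a8 (adjusted p = 0.0101), Dmxl2 (adjusted p = 0.0083) and Car3, the muscle and liver carbonic anhydrase (adjusted p = 0.0282), were also lower against controls of the same runs. None of the 15 genes with the largest falls passed with the run as a fixed block.

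Several of these falls lost their call when 1 animal was left out, some of them for most choices of that animal. Dmxl2 was no longer called without 1000 ppm replicate 1 (limma, adjusted p = 0.078) or without control replicate 2 (adjusted p = 0.0542). Rb1, the retinoblastoma tumor suppressor, which fell by 1.23 ± 0.26, was lost without 1000 ppm replicate 3 (adjusted p = 0.0581). Spin2b, a reader of modified histones, fell by 1.23 ± 0.29 and was lost without 1000 ppm replicate 3 (adjusted p = 0.168), control replicate 1 (0.0727) or control replicate 2 (0.0858). Car3, with 8023, 6152 and 7824 in treated livers and 16827, 18253 and 10381 in controls, stayed called only without control replicate 3 (adjusted p = 0.0216), the control with the lowest signal. Dexi and Camsap2, a protein of microtubule minus ends, fell by 0.92 and 0.87 and stayed called without any 1 animal. Against controls of the same runs both missed the threshold (limma, adjusted p = 0.0858 and 0.860). Fbxo33, Shld2, Celf2, Tnks2 and Ywhab fell by 0.71 to 0.80 with adjusted p values from 0.0099 to 0.0492, and each lost its call without at least 1 animal (highest adjusted p 0.0837, 0.140, 0.182, 0.167 and 0.154 in that order). At 50 ppm on day 7 Camsap2, Tnks2, Fbxo33 and Ywhab also fell against these controls (limma, adjusted p from 0.0128 to 0.0468). Their falls there were 0.75, 0.84, 0.68 and 0.66, and none of the other genes with the largest falls passed. Over all 14252 probesets tested at 50 ppm against these controls, 430 were lower and 91 higher. At 1000 ppm Camsap2 changed by -0.01, -0.19 and 0.16 on days 1, 3 and 14. The part of the shared controls in these falls was not tested.

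**Figure D2:**
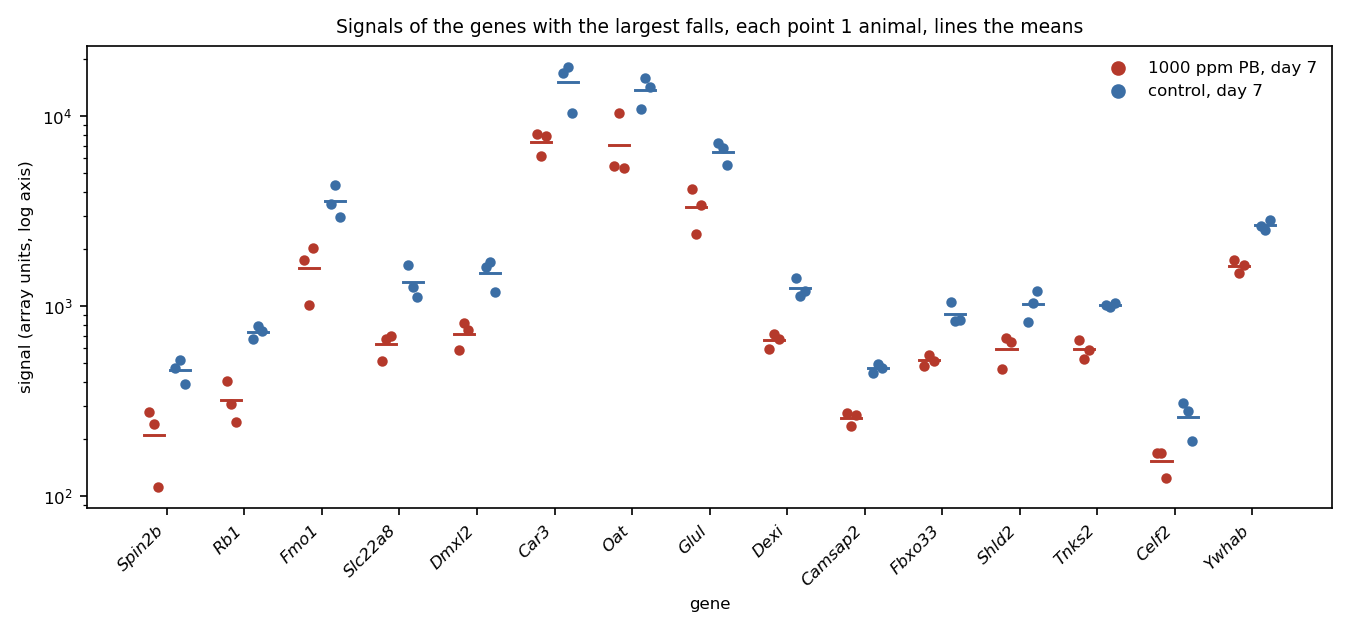
Signal (array units, log axis) of each animal on day 7 for the 15 genes with the largest falls, 1000 ppm PB in red and control in blue, with lines at the means of 3 animals. Genes with overlapping groups were not eligible, and the gaps are narrower than for the genes that rose most.

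Genes of drug metabolism were then described by class, from lists written with earlier results of these data known. The counts in all lists below stand beside 1.23% higher and 0.628% lower over all probesets tested. Among the P450 genes of families 2B and 3A with a probeset of their own, 3 of 5 tested were higher and none was lower, and the median log2 fold change was 0.64. Cyp3a23-3a1, a steroid and drug hydroxylase, had 37956, 45741 and 44061 in treated livers and 22988, 27183 and 26847 in controls, a rise of 0.73 ± 0.12 (limma, adjusted p = 1.3e-04). Cyp3a9 and Cyp3a2 of the same family rose by 0.83 ± 0.22 and 0.64 ± 0.15 (adjusted p = 0.0421 and 0.0198). Cyp3a9 was lost without 1000 ppm replicate 1 (adjusted p = 0.105), 2 (0.0622) or 3 (0.145) or control replicate 3 (0.314), and Cyp3a2 was lost without 1000 ppm replicate 2 (0.0724) or 3 (0.0867) or control replicate 1 (0.223). Cyp3a18 and Cyp2b3, with changes of -0.25 and -0.11, did not pass. None of the 5 passed with the run as a fixed block or against controls of the same runs.

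Few other P450 genes were called. Of 18 tested in families 2A, 2C, 2D, 2E, 2J and the rest of family 2, none was higher and 2 were lower, Cyp2j3, an arachidonic acid epoxygenase, by 0.38 and Cyp2t1 by 0.60 (limma, adjusted p = 0.0459 and 0.0045). Cyp2j3 was not called when any 1 of the 6 animals was left out (adjusted p from 0.0642 to 0.173), and Cyp2t1 was lost without 1000 ppm replicate 1 (0.0545). After quantile normalization 1 gene of this list was higher and 2 were lower. Cyp2e1, the ethanol-oxidizing P450, had 32274, 36337 and 33918 in treated livers and 32094, 43244 and 36115 in controls, so the groups overlapped. Of 9 genes in families 1 and 4, Cyp1a2, which oxidizes caffeine and aromatic amines, was lower and none was higher. It gave 10882, 12224 and 12443 in treated livers and 15535, 17642 and 15176 in controls, a fall of 0.44 (adjusted p = 0.0079) that was lost without 1000 ppm replicate 1 (0.0794) or control replicate 2 (0.0712).

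Among the partners that supply P450 with electrons and heme, Por was higher. This reductase, which passes electrons from NADPH to the P450 enzymes, had 2783, 3479 and 3271 in treated livers and 1467, 1590 and 2240 in controls, a rise of 0.87 ± 0.17 (limma, adjusted p = 0.0022). It was the single gene called of 6 electron donors, whose median change was 0.24, and it passed against controls of the same runs (limma, log2 fold change 1.06, adjusted p = 0.0287). With the run as a fixed block Por missed the threshold (0.86, adjusted p = 0.607). Alas1, the first enzyme of heme synthesis, gave 11139, 14963 and 13850 in treated livers and 5850, 7484 and 6678 in controls. The groups did not overlap, and the change of 0.99 ± 0.31 missed the threshold (adjusted p = 0.0875). Of the 17 genes of heme synthesis and breakdown, Blvrb, a biliverdin reductase, was higher, by 0.47 ± 0.11 (adjusted p = 0.0198), and lost its call without any 1 animal but control replicate 3 (adjusted p up to 0.115).

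Glutathione S-transferases held the most calls of any class of enzyme, 7 higher and none lower of 19 tested, with a median log2 fold change of 0.38, beside 1.23% higher and 0.628% lower over all probesets tested. This list was written with earlier results known. Beside Gstt3 these were Gsta4, which clears aldehydes of lipid peroxidation, Gstm4, Mgst2, Gstm1, Gstk1 and Gstm2. Gsta4 had 12865, 11781 and 11224 in treated livers and 6892, 7389 and 6092 in controls, a rise of 0.82 ± 0.10 (limma, adjusted p = 6.3e-07), and Mgst2, a microsomal transferase, rose by 0.63 ± 0.09 (adjusted p = 8.4e-06). Gstm4, Gstm1, Gstk1 and Gstm2 rose by 0.71, 0.57, 0.41 and 0.38. The list held 8 higher genes after quantile normalization and after centring each array on its median, 1 (Gstt3) against controls of the same runs and 0 with the run as a fixed block. Gstm2 and Gstk1 each lost the call without some of the animals (highest adjusted p 0.134 and 0.121). Paralogs of this family are close in sequence, so signal may be shared between them.

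Conjugation by other routes changed in single genes. Of 7 genes of glucuronidation on the list, which leaves out Ugt2b34l1 described above, Ugt2b10 rose beside Ugt2b1, by 0.62 ± 0.10 (limma, adjusted p = 9.6e-05). Ugt2b10 had 7819, 8318 and 9191 in treated livers and 6023, 5049 and 5394 in controls. It missed with the run as a fixed block (adjusted p = 0.699) and against controls of the same runs (0.156). None of 18 sulfotransferases and methyltransferases passed, and 2 were lower after quantile normalization. Of 10 carboxylesterases, epoxide hydrolases and paraoxonases, Ces2c and Ephx1 were higher, and the other 8 had changes between -0.19 and 0.11. Of 28 aldehyde dehydrogenases and retinoid genes, Aldh1a1 and Aldh1l1, a folate enzyme, were higher, the second by 0.53 ± 0.14 (adjusted p = 0.0336), a call lost without any 1 animal but control replicate 2 (adjusted p up to 0.158). Aox1, aldehyde oxidase, rose by 0.40 ± 0.11 (adjusted p = 0.0422) and was lost without any 1 animal but control replicate 2 (up to 0.223).

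Of 18 aldo-keto, quinone and thioredoxin reductases, 4 were higher and none was lower, with a median change of 0.19. Over all probesets tested 1.23% were higher and 0.628% lower. Nqo1, the quinone reductase of the antioxidant response, had 1185, 1330 and 1196 in treated livers and 348.5, 732.7 and 613.9 in controls. It rose by 1.20 ± 0.19 (limma, adjusted p = 1.5e-04) and passed against controls of the same runs (0.99, adjusted p = 0.0394). With the run as a fixed block Nqo1 missed the threshold (1.03, adjusted p = 0.535). Srxn1, which repairs overoxidized peroxiredoxins, Akr7a3, an aldo-keto reductase that detoxifies aflatoxin aldehyde, and Cbr1, a carbonyl reductase, rose by 0.79 ± 0.18, 1.03 ± 0.28 and 0.50 ± 0.12. Srxn1 was lost without 1000 ppm replicate 1 (adjusted p = 0.113) or control replicate 1 (0.0886), and Cbr1 without 1000 ppm replicate 1 (0.0968) or 2 (0.0932) or control replicate 1 (0.129) or 3 (0.105). Akr7a3 had 6145, 5041 and 5555 in treated livers and 3152, 2482 and 2604 in controls, and its call (adjusted p = 0.0474) was lost whichever animal was left out (0.0686 to 0.160). Gsr, glutathione reductase, was the single gene called of 21 for glutathione synthesis and recycling. It had 1390, 1333 and 1375 in treated livers and 777, 865 and 782 in controls. Gsr passed against controls of the same runs (adjusted p = 0.047) and missed with the run as a fixed block (0.376). Gclc and Gclm, the subunits of the enzyme that limits glutathione synthesis, had changes of -0.13 ± 0.14 and 0.02 ± 0.16 with overlapping groups, and for Gclc the direction changed against all 12 controls (0.02) and against controls of the same runs (0.05). The sign of Gclm was also unsettled, with -0.18 when the run was a fixed block. Among 12 genes of NADPH supply, Tkt, transketolase, rose by 0.54 ± 0.10 (adjusted p = 0.0011). Tkt missed with the run as a fixed block (adjusted p = 0.110) and against controls of the same runs (0.264). Me1, malic enzyme, had 4326, 6869 and 3939 in treated livers and 2757, 2465 and 3738 in controls. Its change of 0.73 ± 0.23 did not pass (adjusted p = 0.0943).

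Of 18 drug transporters with a test, Abcc2, which exports conjugates into bile, was higher by 0.41 ± 0.10 (limma, adjusted p = 0.0153), and lost its call without 1000 ppm replicate 1 (0.0526) or 3 (0.0517) or control replicate 2 (0.0712) or 3 (0.115). Abcb1a, the P-glycoprotein drug pump, had 517, 606 and 488 in treated livers and 221, 328 and 237 in controls in its brightest probeset, a change of 1.05 ± 0.34 (adjusted p = 0.107). A second probeset of this gene rose by 1.13 ± 0.30 (adjusted p = 0.0368). Abcc3, which exports conjugates into blood, had 1170, 1133 and 1504 in treated livers and no listed value in any of the 12 control livers of the series, so it could not be tested. None of 26 nuclear receptors and their partners passed. Nr1i3 (CAR) had 560, 583 and 737 in treated livers against 908, 1202 and 894 in controls, a change of -0.67 ± 0.21 (adjusted p = 0.0883), and Nr1i2 (PXR) one of -0.32 ± 0.16 with overlapping groups.

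**Figure D3:**
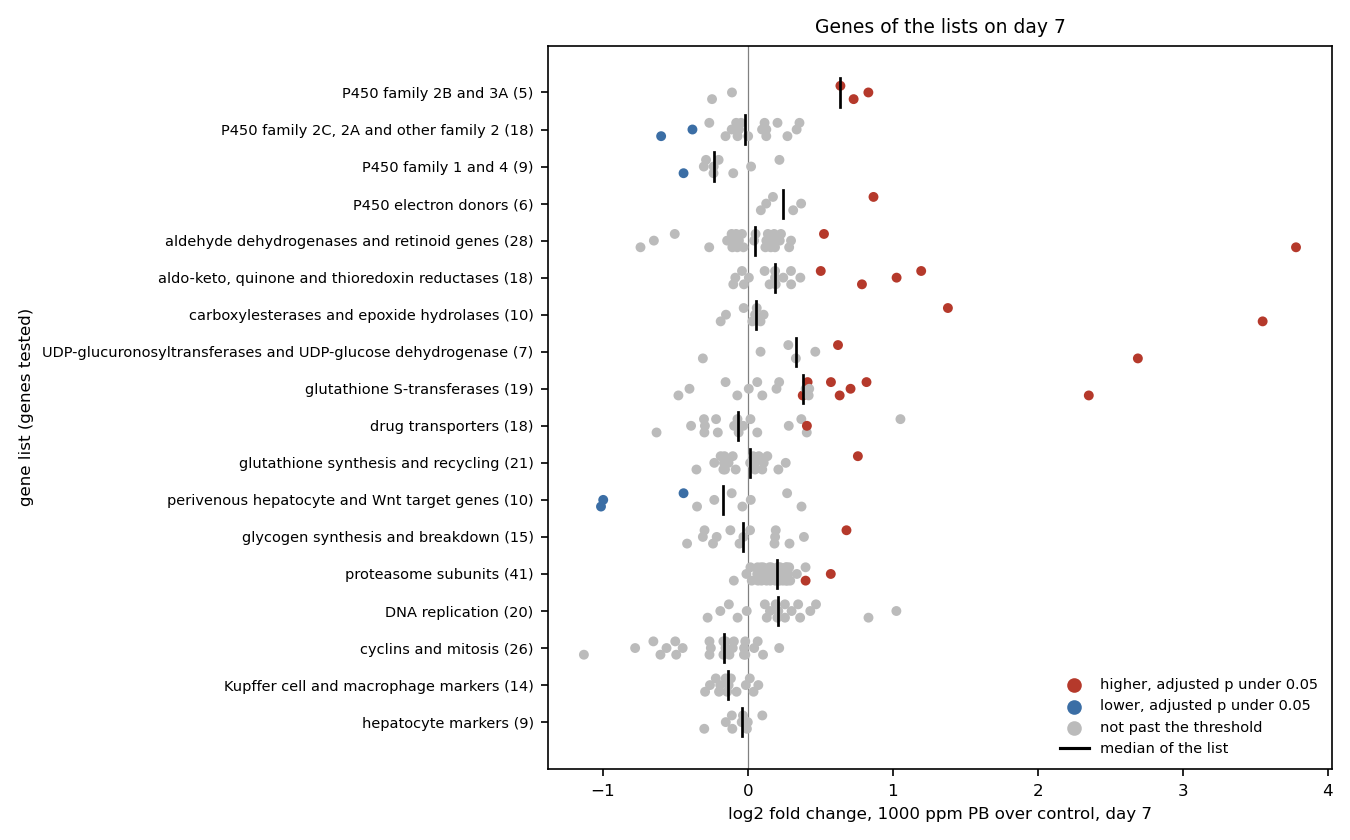
Log2 fold change on day 7 (1000 ppm PB over control) of the genes of 18 lists, 1 point for each gene tested, with a black line at the median of each list. Red points are genes called higher, blue points genes called lower and grey points genes that did not pass. Glutathione S-transferases hold 7 red points of 19, and perivenous genes 3 blue points of 10.

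Beyond drug metabolism the counts were small. Of 10 genes of perivenous hepatocytes and Wnt targets, 3 were lower, Glul, Cyp1a2 and Oat, and none was higher, with a median of -0.17, beside 0.628% lower over all probesets tested. Oat, ornithine aminotransferase, had 5454, 10392 and 5307 in treated livers and 10909, 15834 and 14293 in controls, so 1000 ppm replicate 2 lay close to the lowest control. Its fall of 1.01 ± 0.27 (limma, adjusted p = 0.0372) was lost without 1000 ppm replicate 1 (0.176) or 3 (0.165) or control replicate 2 (0.135) or 3 (0.121). None of 16 periportal genes passed. In glucose metabolism, Slc2a2, the liver glucose transporter, and Pc, pyruvate carboxylase, were lower of 26 genes tested, by 0.47 ± 0.11 and 0.59 ± 0.13. Slc2a2 had 8522, 9088 and 8861 in treated livers and 11411, 11825 and 13532 in controls, and its call (adjusted p = 0.0108) was lost without 1000 ppm replicate 1 (0.0636) or control replicate 3 (0.0984). Pc (adjusted p = 0.0080) was lost without 1000 ppm replicate 1 (0.120), control replicate 1 (0.0614) or control replicate 3 (0.0635). Of 15 genes of glycogen synthesis and breakdown, Stbd1, which tethers glycogen to membranes, was higher, with 2786, 3215 and 3351 in treated livers and 1535, 2257 and 2106 in controls. Its rise of 0.68 ± 0.14 (adjusted p = 0.0038) was lost without control replicate 1 (0.0729).

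In lipid handling, Lpl was the single gene called of 33 for lipoproteins and lipid uptake, and none passed of 26 for fatty acid and triglyceride synthesis, 36 for fatty acid oxidation or 23 for cholesterol synthesis. The median of the cholesterol list was 0.22, with 16 of 23 changes above 0. Of 41 proteasome genes, Psmd9, an assembly chaperone, and Psmd14, the deubiquitinating subunit of the lid, were higher, by 0.57 ± 0.10 and 0.40 ± 0.11. The median was 0.20, with 39 of 41 changes above 0. The share higher over all probesets tested was 1.23%. Psmd9 (limma, adjusted p = 6.2e-04) stayed called without any 1 animal. It missed with the run as a fixed block (adjusted p = 0.589) and against controls of the same runs (0.182). Psmd14 (0.0421) stayed called only without control replicate 1 (0.0372), with adjusted p up to 0.150 otherwise. Of 20 DNA replication genes, which had a median of 0.21 and 15 changes above 0, none passed. Pcna, the sliding clamp, had 2228, 2505 and 2277 in treated livers and 1882, 1764 and 1807 in controls, without overlap, and missed the threshold (0.36 ± 0.11, adjusted p = 0.0734). None of 26 cyclins and mitosis genes passed, and their median was -0.16, with 22 of 26 changes below 0.

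A few single genes were called in the remaining lists. Of 62 genes of amino acid catabolism and the urea cycle, Aass, the first enzyme of lysine breakdown, was higher, by 0.54 ± 0.13 (limma, adjusted p = 0.0234), and Oat and Glud1, glutamate dehydrogenase, were lower. Glud1 had 14487, 15299 and 17616 in treated livers and 20653, 22465 and 20630 in controls, a fall of 0.43 (adjusted p = 0.0036) that was lost without 1000 ppm replicate 1 (0.0513). Aass was lost without 1000 ppm replicate 2 (0.0932) or 3 (0.072) or control replicate 1 (0.163) or 2 (0.0508). Of 49 plasma proteins, Masp1, a protease of the lectin pathway of complement, fell by 0.62 (adjusted p = 0.0021) and stayed called without any 1 animal. Masp1 missed with the run as a fixed block (limma, adjusted p = 0.690) and against controls of the same runs (0.195). Of the changes in this list, 36 of 49 were below 0. Of 15 acute phase genes, Cd14, the lipopolysaccharide receptor, rose by 0.58 (adjusted p = 0.0492), a call that held only without 1000 ppm replicate 2 (adjusted p up to 0.199 otherwise). Of 24 genes of cell growth, cytoskeleton and membranes, App, Meox2 and Zdhhc2 were higher, and of 17 for bile acids Abcc2 was. No gene passed among 12 of thyroid hormone handling, 17 of the circadian clock, 31 p53 targets and cell death genes, 32 of ribosome biogenesis, 41 of the endoplasmic reticulum, 46 of the respiratory chain and citric acid cycle, 14 immediate early genes, 21 interferon response genes, 6 lymphocyte and blood markers and 2 pancreas and gut markers. The medians of these 10 lists lay between -0.24 (circadian clock) and 0.24 (pancreas and gut).

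Among markers of other liver cells, Epcam, a surface protein of bile duct cells, was the single gene called of 20 for stellate, endothelial and bile duct cells. It had 703, 794 and 1094 in treated livers and 401, 535 and 538 in controls, a rise of 0.80 ± 0.20 (limma, adjusted p = 0.0258) that was lost without 1000 ppm replicate 3 (0.168) or control replicate 1 (0.164). The summed signal of the bile duct markers was 914 to 1304 in treated livers and 511 to 720 in controls. Epcam gives most of this sum, so the sum largely repeats the Epcam result. Krt7 was listed on none of the 6 arrays. None of 14 Kupffer cell and macrophage markers passed (changes from -0.30 to 0.07), and their summed signal was 26132 to 29090 in treated livers and 27898 to 31191 in controls. The part of bile duct cells in any other result was not tested.

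Some probesets were listed in only 1 of the 2 groups, and they can be given no fold. A total of 65 were listed on all 3 treated arrays and on no control array, and 57 the other way round, beside 12837 listed on all 6 arrays. What an unlisted value stands for is not stated. The brightest of the first kind was Gstm3, a mu class glutathione S-transferase, with 2183, 1797 and 1696 in treated livers. Abcc3 came next, and Gadd45b, a stress response gene known to interact with CAR in mouse liver, had 458, 854 and 596. Gpx2, a glutathione peroxidase of epithelia, had 294.5, 290.3 and 373.8, and Fbxo27, a ubiquitin ligase subunit that binds glycoproteins, had 308, 244 and 413. These 5 genes were among 9 of the 65 probesets listed on 0 of the 9 control arrays of the other days, and the other probesets of the 65 were listed on at least 1 of them. Of the second kind, Mettl3, the RNA adenosine methyltransferase, had 335, 449 and 428 in controls, and Kif20a, a kinesin of cell division, had 302, 266 and 297. They were listed on 7 and 5 of the other 9 control arrays, and on 1 and 6 of the 9 arrays of 1000 ppm livers on other days.

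The response on day 7 was compared with that on the other days of the 1000 ppm diet by testing the difference between responses, each taken against controls of its own day. The response differed from day 1 in 12 probesets (0.0888% of 13511 tested), from day 3 in 1 (0.00736%) and from day 14 in 9 (0.0681%) (limma). Lpl, Ces2c and App rose more on day 7 than on day 1. For Lpl the log2 fold changes on days 1, 3, 7 and 14 were 0.19 ± 0.34, 1.29 ± 0.30, 2.83 ± 0.30 and 2.60 ± 0.30, and the step of 2.64 between days 1 and 7 passed (adjusted p = 0.0036). Ces2c rose by 1.73, 3.54, 3.55 and 3.51 on these 4 days (standard error 0.21 on each), with a step of 1.82 from day 1 (adjusted p = 0.0023). Aldh1a1 and Gstt3 had larger values on day 7 than on day 1 (3.78 against 2.12, and 2.35 against 0.54), and the differences did not pass (adjusted p = 0.224 and 0.148). None of these 22 differences in response passed with the run as a fixed block. All 1000 ppm arrays of day 14 were made in run 1, and their controls in runs 5 and 6. Median signals were 501.2 to 546.4 on those treated arrays, against 444 to 463.5 on the treated arrays of day 7. The part of the run in the differences from day 14 was not tested.

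**Figure D4:**
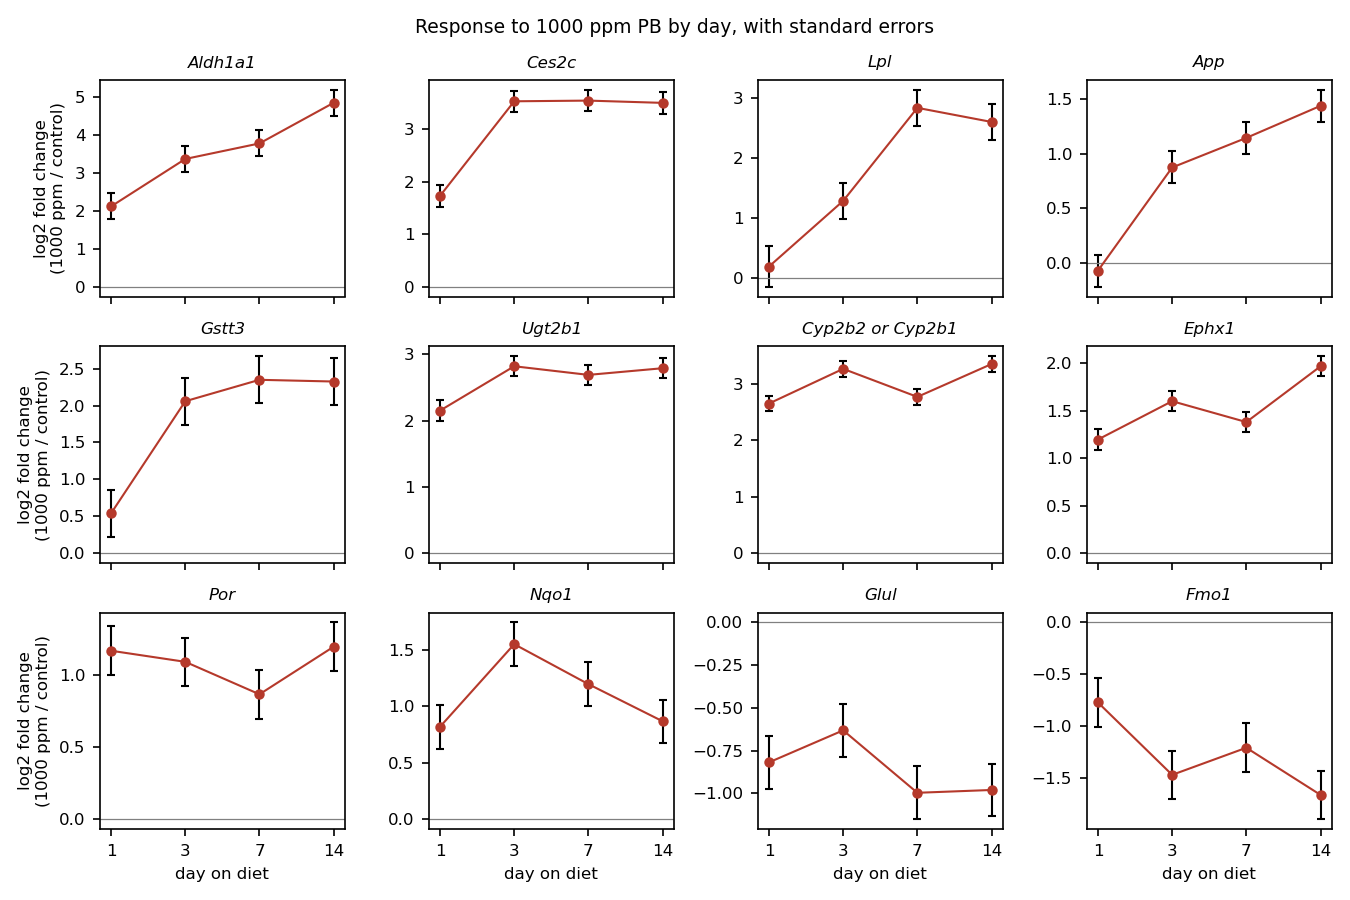
Log2 fold change at 1000 ppm PB over time matched controls on days 1, 3, 7 and 14 for 12 genes, with standard errors from the fit (3 animals in each group). Lpl and App climb between day 1 and day 7, while the probeset of Cyp2b2 or Cyp2b1, Ephx1 and Por are raised on every day shown.

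The 3 doses of day 7 share the same controls, so their values are given side by side and the step between the 2 upper doses was tested directly between treated animals. The probeset of Cyp2b2 or Cyp2b1 had mean signals of 30220, 54400 and 38260 at 50, 500 and 1000 ppm, against 5600 in controls, and Ugt2b1 had 17570, 33970 and 29440 against 4671. Both genes were thus already several times the control level at the lowest dose. Aldh1a1 had 1489, 12120 and 15780 at these doses against 1290 in controls, Ces2c 756, 5503 and 7205 against 616, and Lpl 271, 1170 and 1786 against 258. For these 3 genes the change at 50 ppm did not pass (limma, adjusted p = 0.716, 0.593 and 0.908). Between 1000 and 500 ppm the P450 2B probeset differed by -0.51 ± 0.14 (adjusted p = 0.107) and Aldh1a1, Ces2c and Lpl by 0.39 ± 0.34, 0.39 ± 0.21 and 0.59 ± 0.30, none of which passed.

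Between 1000 and 500 ppm 32 of 13299 probesets passed (0.241%), 14 higher and 18 lower at 1000 ppm. Of the 500 ppm arrays, 2 were made in run 1 and stood apart, with 13763 and 13479 probesets listed and median signals of 541.5 and 564.6, against 444 to 463.5 on the 1000 ppm arrays. The 500 ppm mean lay below the control mean in 13 of the 14 probesets called higher and above it in all 18 called lower, and the part of these arrays in the calls was not tested. The split depends on the scaling: after quantile normalization, which moved the median of all probesets in this comparison to 0.20, 1158 were higher and 16 lower. Acad9, a mitochondrial assembly factor of complex I, was the exception among the 14 and was singled out after its values were seen. It had 2651, 2503 and 2504 at 1000 ppm, against 1906, 1851 and 1952 at 500 ppm, a difference of 0.42 ± 0.09 (limma, adjusted p = 0.0411). Its mean in controls was 1518. Rdx, radixin, Pepd, a dipeptidase, Tom1l1, Ubqln2 and Mrpl51 had the largest higher values, 0.55 to 0.97, and Clca2, Tmem164, Prickle3, Lrrc8a and Spata2L the largest lower ones among named genes, -1.50 to -1.14. Those lower ones were dim, with listed signals of at most 255 at 1000 ppm, and Clca2, Tmem164, Prickle3 and Spata2L were unlisted on 1 of the 3 arrays at 500 ppm. None of the 31 that could be tested with the run as a fixed block passed there, and 2, 0 and 15 probesets passed without 1000 ppm replicate 1, 2 and 3.

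The 4 controls that share runs with the treated arrays were killed on day 1 or day 14, and the treated arrays are common to both comparisons, so their values are given side by side. Fold changes against them were 4.45 for Aldh1a1, 3.78 for Ces2c, 2.98 for the P450 2B probeset, 2.53 for Ugt2b1 and 1.75 for Ephx1 (limma, adjusted p from 1.5e-04 to 0.0058), all on the log2 scale. For Camsap2 the change was -0.09 against these controls and -0.87 against those of day 7, and for Tnks2 it was -0.29 and -0.77, so these falls were far smaller there.

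**Figure D5:**
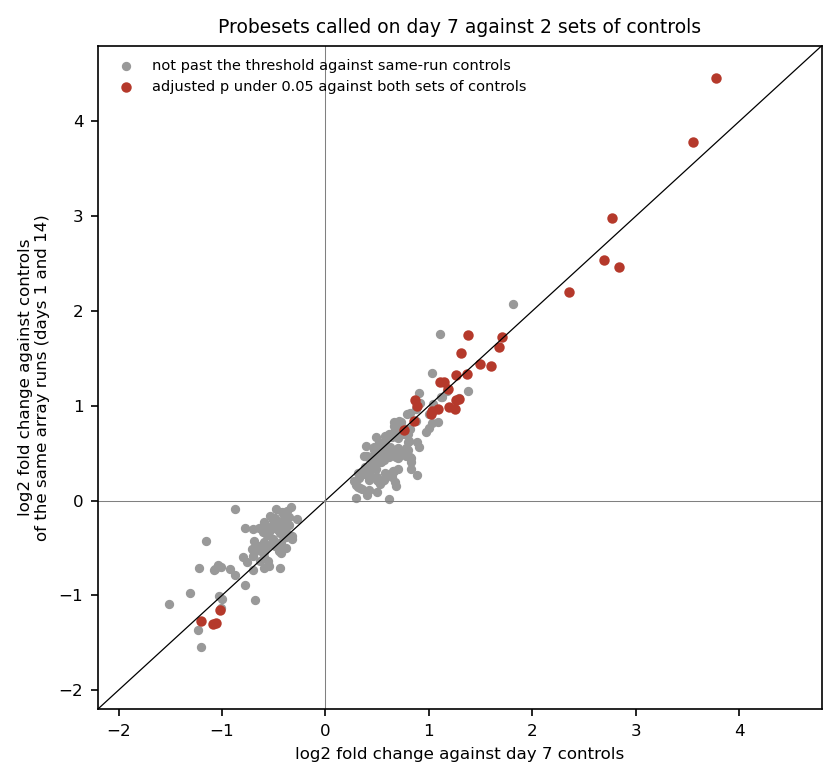
Log2 fold change of the probesets called on day 7, against the day 7 controls (horizontal axis) and against 4 controls of days 1 and 14 made in the same array runs (vertical axis), with the line of equality. Red points passed against both sets of controls, which share the treated arrays, and some falls lie near 0 on the vertical axis, such as Camsap2 at -0.09.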

How the data were processed

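Liver RNA was hybridised to 48 Affymetrix rat arrays. The authors deposited signal intensity values made with MAS 5.0 and scaled each array to a common mean, and values left empty in the deposited table were kept as missing. A second deposited table holds ratios and was not used. Arrays were placed by animal number, since the labels of 7 arrays differ from it, none of them among the 6 compared here.

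Of 31099 probesets, 57 controls were left out, and 18073 reached an intensity of 90 on 3 or more arrays. Each group compared needed 2 or more listed signals. Log2 intensity was fitted with limma 3.58.1 (R 4.3.3, floor 0.01), with a mean for each of the 16 dose and day groups over all 48 arrays and Benjamini-Hochberg adjustment at 0.05. Figures and promoter searches used Python 3.11.15. Single symbols were given to 20826 probesets, several to 436 and none to 9780. Each gene of a list was read from its brightest own probeset.

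The genes named were the 15 with the largest rise and the 15 with the largest fall among those called with at least 1.5-fold change, all 6 signals listed and no overlap, the members called in each of 45 gene lists, and a short list of known genes. Members and lists were chosen with earlier results of these data known. In simulated data for this comparison, 22, 45 and 48 of 50 genes changed by 1.5-, 2- and 3-fold were called with all 6 signals listed, 21 of 50 at 2-fold with 4 or 5 listed, and 3 of 14281 unchanged ones were called. The simulated signals held independent noise and no effect of the run, so these rates do not cover errors that come from the run. The number of arrays limits the precision. Alternatives were quantile normalization, median centring, other filters, run and replicate blocks, the 6 arrays alone, other controls, the labels of the 7 arrays and leaving out each animal.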

Additional observations from a re-analysis of the deposited data

Results flagged for a closer look

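The results here are probesets whose 1000 ppm response on day 7 differed from the response on another day by a test of that difference (limma, adjusted p under 0.05). With the run as a fixed block none of them passed (adjusted p from 0.416 to 0.996). Groups of 3 animals are too small for the test of single outlying samples. Values are log2 differences, day 7 minus the other day, and explanations were not tested.

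Against day 1, the response of Lpl was higher by 2.64 (adjusted p = 0.00359), that of Ces2c by 1.82 (adjusted p = 0.0023) and those of 2 App probesets by 1.38 and 1.22. Slc25a23, a mitochondrial carrier, had a difference of 1.3, with changes of 0.51 on day 7 and -0.79 on day 1. Ccnd1, the G1 cyclin, had a difference of -1.32 (adjusted p = 0.0213), with changes of -0.56 on day 7 and 0.76 on day 1. Mcm7, a subunit of the replicative helicase, had -0.96, with -0.28 on day 7 and 0.68 on day 1. Dnaja4, a cochaperone, had -0.91, Insig2, a brake on sterol synthesis, -0.87, Ptpn12, a phosphatase, -0.79, Rab6a, a Golgi GTPase, -0.54 and a probeset with no symbol -1.42. After quantile normalization Rab6a and Slc25a23 missed the threshold (adjusted p = 0.0532 and 0.0573).

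Against day 3, the single difference was that of Igfbp4, which binds insulin-like growth factors, at 0.87 (adjusted p = 0.0395), with changes of 0.00 on day 7 and -0.86 on day 3, and it missed after quantile normalization (adjusted p = 0.105). Against day 14, 9 probesets shared an adjusted p of 0.0445. Higher on day 7 were Tpr, a nuclear pore protein, by 1.93, Clcc1 by 1.02 and Ntpcr by 0.56. The differences of Vps13d, Smim1, Hspa4 and Dcun1d4 were -1.49, -1.24, -1.1 and -0.73, and those of 2 probesets with no symbol were -2.27 and -1.66. After quantile normalization Vps13d, Smim1, Hspa4, Dcun1d4 and the second of these probesets missed the threshold (adjusted p = 0.126, 0.0738, 0.0738, 0.103 and 0.0666).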

How the results depend on the processing

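The 269 calls on day 7 became 207 after quantile normalization (144 higher, 63 lower), 269 after median centring (198 higher, 71 lower), 293 with the run as a random block, and 258, 281 and 375 with other filters. They became 13 with the run as a fixed block, 38 against controls of the same runs, 525 against all 12 controls, 173 with the 7 arrays placed by their labels, 149 at 1.5-fold and 115 at an adjusted p under 0.01. The 6 arrays alone gave 12 calls, 5 with the replicate block and 91 with the run as a random block, an alternative chosen after seeing the data. Animals of 2 groups share only a replicate number (correlations of their deviations 0.3, 0.215 and 0.0996). Leaving out 1 animal gave 136 to 202 calls. Of 66 named genes called, 3 (Ces2c, Cyp2b2 or Cyp2b1, and Ugt2b1) passed under every setting.

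The 32 calls between 1000 and 500 ppm became 1174 after quantile normalization, 82 without the 7 arrays, 0 with their labels (limma, 1254 at an unadjusted p under 0.05), 0 with the run block (925) and 0 to 15 without 1 treated animal (1345 at an unadjusted p under 0.05 where it was 0). The 12 differences from day 1 became 2 with the run block, 0 with the labels (1080) and 6 to 19 without 1 animal. The 2 with the run block were not among the 12. The 1 difference from day 3 became 0 after quantile normalization (950), 0 with the run block (722), 0 with the labels (797) and 0 to 2 without 1 animal. The 9 differences from day 14 became 66 after quantile normalization, 0 with the run block (513), 0 with the labels (1152) and 0 to 7 without 1 animal. Of the 9, 3 were higher and 6 lower, while of the 66, 65 were higher and 1 lower. Only 4 were called in both, and quantile normalization moved the median of all probesets in this comparison to 0.20.

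Directions also changed among genes that had not passed. Gclc (-0.133) had 0.018 against all 12 controls and 0.051 against controls of the same runs. Gclm (0.016) had -0.002 after quantile normalization, -0.178 with the run block and -0.137 to 0.182 without 1 animal. Cyp2e1 (-0.111) had -0.211 to 0.004 without 1 animal. The causes were not tested.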
